A study of Saccharomyces cerevisiae with 30 samples.

Results

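The Hsp90 chaperone system of budding yeast was followed here through 10 transcripts of the 7126 features in the auxin and diazaborine tables, all 10 of which were also among the 6777 features with diamide values. They were chosen by name: the Hsp90 genes HSP82 (YPL240C) and HSC82 (YMR186W) and the co-chaperone genes STI1 (YOR027W), AHA1 (YDR214W), HCH1 (YNL281W), CPR6 (YLR216C), CPR7 (YJR032W), SBA1 (YKL117W), CDC37 (YDR168W) and CNS1 (YBR155W). RNA was taken from cells depleted of a ribosomal RNA (rRNA) processing nuclease, from cells given the 60S assembly inhibitor diazaborine (DZA) and from cells given the thiol oxidant diamide, each beside its own control, 30 samples in all.

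In the depletion strains LAS1-AID, RRP17-AID, RRP44-AID and RAT1-AID the named gene carries 3xV5-IAA7, an auxin-inducible degron at its own locus, and auxin (indole-3-acetic acid, 100 µM, 20 min) was compared with mock treatment. Rat1 and Rrp17 are 5′-exonucleases, Rrp44 (Dis3) is the catalytic nuclease of the exosome and Las1 is an endonuclease of the pre-rRNA. These 4 strains and the WT strain of the auxin experiment are BY4741 with an RPB3-3xFLAG fusion and with osTIR1, the plant ubiquitin ligase adaptor that recognises the degron, expressed from the GPD1 promoter at the deleted leu locus. That WT strain has osTIR1 but no degron. DZA (15 µg/ml) was compared with 0.1% DMSO after 15 and 45 min in untagged BY4741 cells, and diamide (1.5 mM, 15 min) with 0 min in BY4741 cells with RPB3-3xFLAG. There were 2 replicates (A and B, grown on separate days) of each auxin, mock, DZA and DMSO condition and 1 library for each diamide time. The mock columns A and B of RRP17-AID were identical for all 7126 features and were counted as 1 library, so that strain has no test.

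Hsp90 is an abundant dimeric chaperone that uses ATP to bring a selected set of proteins, among them kinases and transcription factors, to their active state. Yeast has a pair of nearly identical Hsp90 genes, of which HSC82 is expressed at a high level in growing cells and HSP82 is strongly induced by heat, and either gene alone keeps cells alive. Co-chaperones set the pace of the cycle: Sti1 holds Hsp70 and Hsp90 together for the hand-over of a client, Cdc37 brings kinases, Aha1 and its smaller relative Hch1 act on the ATPase, Sba1 (the yeast p23) holds the closed ATP-bound dimer, and Cpr6, Cpr7 and Cns1 bind the Hsp90 tail through TPR repeats. The heat shock factor Hsf1 activates its targets through heat shock elements, repeats of GAA in alternating orientation.

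The 300 bases before the start of the deposited feature of HSP82, HSC82, STI1, CPR6 and CPR7 are printed because these genes ranged from the largest rise to a fall in the comparisons below. Sequence is from the RefSeq R64 genome, the build that the submitters name, 5′ to 3′ on the strand of the gene, and capitals mark 2-unit heat shock elements (TTCNNGAA or GAANNTTC, searched on both strands).
HSP82 (chrXVI:98682-98981, minus strand): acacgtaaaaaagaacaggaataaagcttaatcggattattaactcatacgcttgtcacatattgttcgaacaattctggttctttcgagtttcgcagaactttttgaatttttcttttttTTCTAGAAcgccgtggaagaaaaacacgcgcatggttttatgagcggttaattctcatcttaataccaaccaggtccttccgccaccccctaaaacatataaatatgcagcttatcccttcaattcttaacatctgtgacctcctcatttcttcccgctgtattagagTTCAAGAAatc
HSC82 (chrXIII:632028-632327, plus strand): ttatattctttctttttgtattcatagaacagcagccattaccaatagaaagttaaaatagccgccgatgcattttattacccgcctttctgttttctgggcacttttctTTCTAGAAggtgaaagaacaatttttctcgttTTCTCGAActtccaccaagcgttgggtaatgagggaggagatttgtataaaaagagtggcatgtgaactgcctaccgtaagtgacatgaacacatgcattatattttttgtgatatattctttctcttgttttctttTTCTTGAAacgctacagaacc
STI1 (chrXV:380730-381029, plus strand): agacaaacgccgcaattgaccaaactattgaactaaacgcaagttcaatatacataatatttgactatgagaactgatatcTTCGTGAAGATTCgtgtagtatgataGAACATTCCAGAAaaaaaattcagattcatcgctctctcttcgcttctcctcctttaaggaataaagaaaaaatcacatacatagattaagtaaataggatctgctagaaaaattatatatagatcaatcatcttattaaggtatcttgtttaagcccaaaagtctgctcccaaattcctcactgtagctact
CPR6 (chrXII:573243-573542, minus strand): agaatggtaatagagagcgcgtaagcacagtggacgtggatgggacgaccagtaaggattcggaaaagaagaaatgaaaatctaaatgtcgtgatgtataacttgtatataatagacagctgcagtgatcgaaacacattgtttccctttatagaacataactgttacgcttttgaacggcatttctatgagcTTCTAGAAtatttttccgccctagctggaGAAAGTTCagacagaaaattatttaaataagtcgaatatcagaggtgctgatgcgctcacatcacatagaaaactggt
CPR7 (chrX:490758-491057, plus strand): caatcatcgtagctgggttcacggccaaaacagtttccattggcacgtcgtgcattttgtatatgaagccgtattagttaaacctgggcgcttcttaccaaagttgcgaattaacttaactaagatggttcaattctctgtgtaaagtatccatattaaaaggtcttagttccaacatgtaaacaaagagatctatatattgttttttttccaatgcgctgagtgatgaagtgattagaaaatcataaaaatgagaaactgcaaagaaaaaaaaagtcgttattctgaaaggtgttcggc

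HSP82 and HSC82 share the form TTCTAGAA, 179 and 190 bases before the feature start at its first base, and AHA1, HCH1 and CPR6 hold the same 8 letters. The longer element, 3 units with any 2 bases between units, was found in STI1, as TTCGTGAAGATTC and GAACATTCCAGAA, and in AHA1, as GAATTTTCTAGAA, of which each contains overlapping 2-unit forms. Of 6776 windows of this length, 61 (0.9%) held a 3-unit element, 1573 (23.2%) a 2-unit element and 1517 (22.4%) the Msn2/4 element AGGGG. In this set the numbers were 2, 7 and 2 of 10, the Msn2/4 letters being in the HSP82 and SBA1 windows. The windows of CPR7, CDC37 and CNS1 held no 2-unit element. A match is a description of letters and not a measured binding site.

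Values in the auxin and DZA tables are read counts divided by the size factors of their own table (normalized counts), so levels are compared only within a table. Between 15014154 and 99585064 reads (median 32782749) were counted on features in the 26 libraries whose reads could be recovered. All 10 transcripts passed the filter of a mean of at least 10 normalized counts in every table and of at least 1 RPKM with diamide. A feature was called changed at a limma adjusted p under 0.05 (Benjamini-Hochberg over all features of the table), and fold changes are on the log2(normalized count + 1) scale. In cultures, a larger amount in each cell and a response of more cells cannot be told apart.

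Per kilobase of coding length, HSC82 was the highest of the 10 transcripts in all 13 control libraries. Relative to HSC82 in the same library, the median level was 17.9% for SBA1, 17.1% for STI1, 14.4% for HCH1, 10.5% for CPR6, 10.2% for HSP82 and 8.42% for AHA1. CDC37 stood at 6.31%, CPR7 at 3.41% and CNS1 at 3.32%. Neighbours in this order were often not separated: SBA1 was above STI1 in 9 of the 13 libraries, HSP82 above AHA1 in 9 and CPR7 above CNS1 in 7, whereas CDC37 was above CPR7 in all 13. HSP82 ranged from 7.0% to 12% of HSC82 in control libraries, and in the 12 libraries of the 4 depletions and of DZA it ranged from 17.7% to 51.6%, without overlap.

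Auxin called 0 of the 10 transcripts in WT cells, where 0% of 6295 features were called higher by limma and edgeR and DESeq2 called 0 and 2 features. An unadjusted limma p under 0.05 was found for 48 features, of which 2 were members, HSP82 and AHA1, both lower after auxin. Depletion of Rat1 raised 2 members, HSP82 and CPR6, while 10.7% of all 6524 features were called higher. Depletion of Rrp44 and of Las1 each raised the same 5 members (HSP82, STI1, AHA1, HCH1 and CPR6), where 15.1% and 16.5% of features were called higher, and each lowered CPR7, where 10.2% and 17.2% were called lower. After 15 min of DZA these 5 were again called higher, against 3.8% of features. After 45 min 7 members were higher, with HSC82 and SBA1 added, and CPR7 was lower, where 23.7% of features were higher and 23.7% lower. The median log2 fold change of the 10 transcripts was 0.33, 0.41 and 0.33 when Rat1, Rrp44 and Las1 were depleted and 0.80 and 0.74 after 15 and 45 min of DZA, and that of all features lay between -0.018 and -0.0069 in these tables. Leaving out either DZA library at 15 min removed every call in that table, of members and of other features alike. Wherever 1 library is left out below, its group has a single library that is assumed to vary like the other group, which alone supplies the spread.

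**Figure D1:**
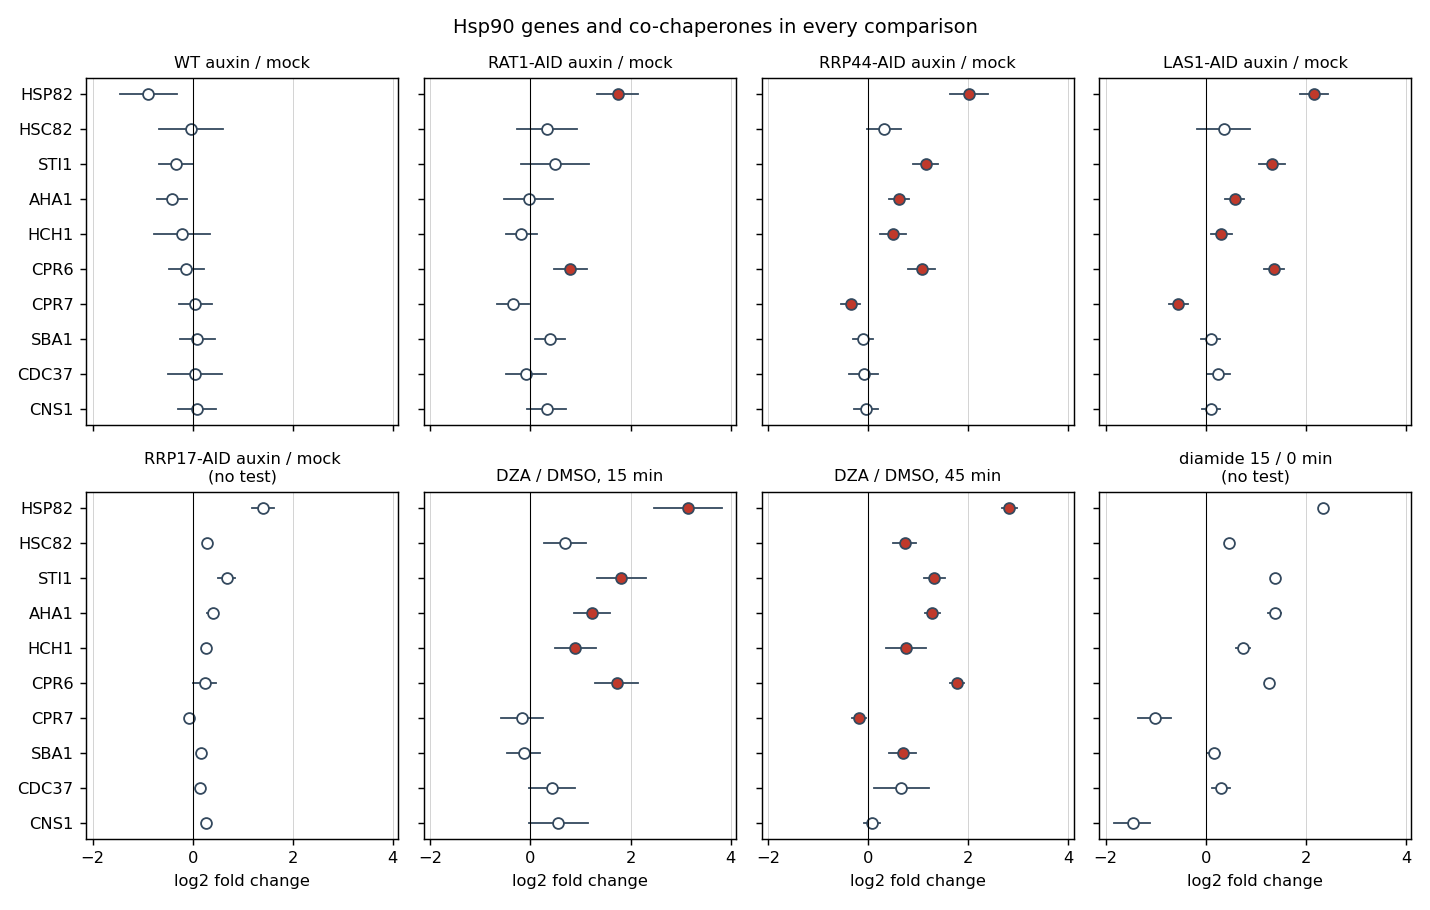
Log2 fold change of the 10 transcripts (rows) in each of 8 comparisons (panels), treated over control. Lines are 95% confidence intervals, except that they span the values of the 2 auxin libraries for RRP17-AID and cover counting error only for diamide, and filled points were called at a limma adjusted p under 0.05. HSP82 is the rightmost point in 7 of the panels and the leftmost in WT auxin, and CPR7 lies left of 0 in every panel except WT auxin.

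HSP82, the inducible Hsp90 gene, had the largest rise of the set in each depletion and at both DZA times. After auxin it had 109439 and 91471 normalized counts in RAT1-AID cells, against 29987 and 29728 after mock treatment, a 3.35-fold difference (log2 fold change 1.74 ± 0.17 SE, limma adjusted p = 0.00145). In RRP44-AID cells it had 54647 and 55036 normalized counts after auxin, against 16105 and 11417 after mock treatment (4.04-fold, log2 fold change 2.02 ± 0.16 SE, limma adjusted p = 0.000416). LAS1-AID cells had 55914 and 53284 after auxin, against 11569 and 12813 after mock treatment (4.48-fold, log2 fold change 2.16 ± 0.12 SE, limma adjusted p = 1.19e-05). The auxin libraries of each strain lay well above both of its mock libraries, and the auxin replicates of RRP44-AID and of LAS1-AID lay close together.

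DZA raised HSP82 at both times. At 15 min the DZA libraries had 143607 and 145038 normalized counts, against 20967 and 12618 in the DMSO libraries (8.87-fold, log2 fold change 3.15 ± 0.26 SE, limma adjusted p = 0.015). The 45 min values were 169361 and 158639 with DZA, against 23152 and 23184 with DMSO (7.07-fold, log2 fold change 2.82 ± 0.058 SE, limma adjusted p = 0.000168). The wider error at 15 min came with DMSO libraries that differed from each other, 20967 in A and 12618 in B, where the DZA libraries were close. In the 15 min table HSP82 no longer passed when a DZA library was left out (adjusted p = 0.106 without A and 0.108 without B), with the log2 fold change between 3.14 and 3.16.

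**Figure D2:**
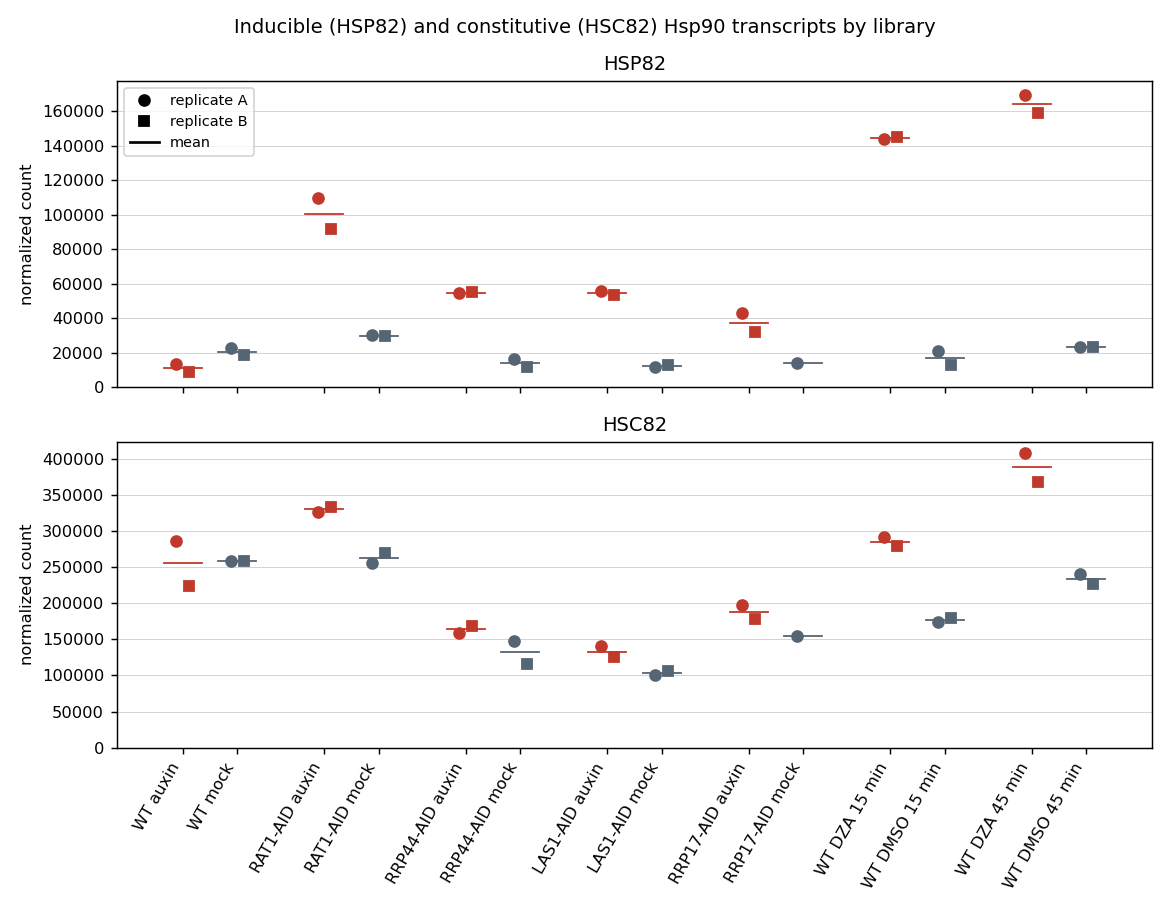
Normalized counts of HSP82 (top) and HSC82 (bottom) in each library of the auxin and DZA tables, with treated groups in red left of their controls in grey. Circles are replicate A, squares replicate B and lines the group mean, and each pair of groups was scaled on its own. HSP82 of treated cells lies above its controls in every pair except WT auxin, and HSC82 of treated cells averages at most 1.66-fold its controls.

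HSC82, the constitutive gene, had smaller fold changes and was called in 1 of these 5 comparisons. It had 326486 and 333542 normalized counts in RAT1-AID cells after auxin, against 256070 and 269145 after mock treatment (log2 fold change 0.33 ± 0.25 SE, limma adjusted p = 0.417). The values in RRP44-AID cells were 158933 and 168649 after auxin and 148051 and 116102 after mock treatment (log2 fold change 0.32 ± 0.14 SE, limma adjusted p = 0.14), and in LAS1-AID cells 140668 and 125493 after auxin and 101155 and 106784 after mock treatment (log2 fold change 0.35 ± 0.23 SE, limma adjusted p = 0.262). None of these differences passed the test. The groups did not overlap in any of these strains, but groups of 2 libraries often lie apart without any change. With DZA it had 291658 and 279323 at 15 min, against 173743 and 179147 with DMSO (log2 fold change 0.69 ± 0.16 SE, limma adjusted p = 0.077), and at 45 min 408685 and 368004, against 241257 and 226859 with DMSO (1.66-fold, log2 fold change 0.73 ± 0.089 SE, limma adjusted p = 0.00421). Leaving out a library, which leaves a group of 1, also let HSC82 pass: mock A in RRP44-AID cells (adjusted p = 0.0287), auxin B in LAS1-AID cells (0.00732), and DMSO A or B at 15 min (0.0184 and 0.0167). DESeq2 on the recovered reads also called HSC82 in LAS1-AID cells and at 15 min of DZA (adjusted p = 0.00687 and 0.00018).

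The rise of HSP82 beyond that of HSC82, measured within each library as the difference of their log2 values, was 1.41 in RAT1-AID cells (same-letter pairs 1.52 and 1.31), 1.70 in RRP44-AID cells (1.66 and 1.73) and 1.81 in LAS1-AID cells (1.8 and 1.82). It was 2.46 after 15 min of DZA (2.03 and 2.88) and 2.09 after 45 min (2.11 and 2.08). Every pair favoured HSP82, whereas auxin in WT cells gave -0.86, with both pairs favouring HSC82 (-0.88 and -0.84). Over the 3 depletions the mean was 1.64 (exact permutation test within tables, two-sided, p = 0.00926, the smallest that such labellings can give), and over these and both DZA times it was 1.89 (exact permutation test, p = 0.000257, again the smallest possible). With labels exchanged only within same-letter pairs, the exact permutation p was 0.0313 (64 labellings) and 0.00195 (1024 labellings), each also the smallest possible. Without the table of any 1 of the 3 depletions the mean lay between 1.55 and 1.75 and the exact p was 0.0556, the smallest that 36 labellings can give.

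As a share of the Hsp90 transcripts per kilobase, HSP82 made up 25% and 21.4% after auxin in RAT1-AID cells, against 10.4% and 9.90% after mock treatment. The shares in RRP44-AID cells were 25.5% and 24.5% after auxin and 9.76% and 8.91% after mock treatment, and in LAS1-AID cells 28.3% and 29.7% after auxin and 10.2% and 10.7% after mock treatment. DZA gave 32.9% and 34.1% at 15 min, against 10.7% and 6.55% with DMSO, and 29.2% and 30.0% at 45 min, against 8.71% and 9.22% with DMSO. In WT cells the shares were 4.48% and 3.81% after auxin, against 7.94% and 6.61% after mock treatment, the opposite direction. HSC82 stayed the larger part of the Hsp90 message in every library. The summed Hsp90 level per kilobase was 1.47-fold, 1.51-fold and 1.61-fold that of mock cells when Rat1, Rrp44 and Las1 were depleted, and 2.22-fold and 2.14-fold that of DMSO cells after 15 and 45 min of DZA.

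**Figure D3:**
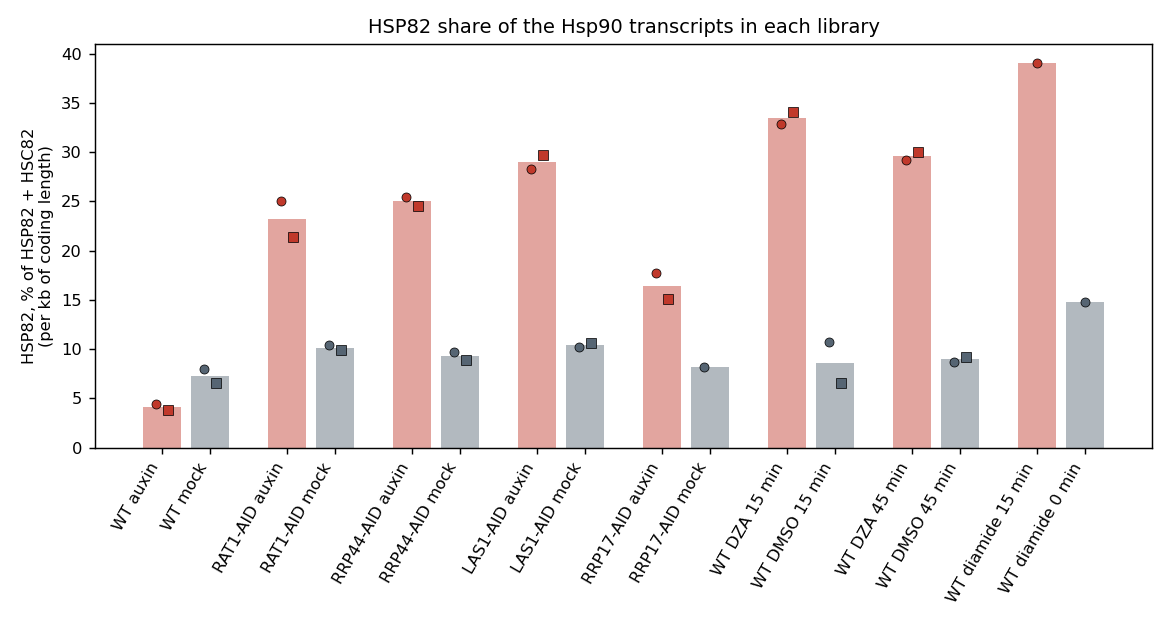
HSP82 as a percentage of HSP82 plus HSC82, each per kilobase of coding length, in every library (points) with the group mean (bars), treated groups in red left of their controls in grey. Control libraries lie between 6.55% and 14.8%, and libraries of depleted, DZA-treated and diamide-treated cells between 15.0% and 39.0%. The WT auxin libraries lie below every control, at 4.48% and 3.81%.

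The coding sequences of HSP82 and HSC82 are 91.7% identical in R64, and the longest stretch they share is 113 bases. Of the 25-base, 50-base and 75-base windows of HSP82, 21.5%, 6.39% and 2.19% occur in HSC82, so reads in these stretches could have been placed on either gene or dropped, and how multiply placed reads were counted is not given in the sources used here. No other pair of members shared a 25-base window. Most of the sequence separates the genes, but the ratio of HSP82 to HSC82 could be pulled towards 1 or away from it by the treatment of shared reads, and the size of this was not tested.

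STI1 encodes the scaffold between Hsp70 and Hsp90. After auxin it had 43325 and 43637 normalized counts in RRP44-AID cells, against 21589 and 17851 after mock treatment (2.21-fold, log2 fold change 1.15 ± 0.11 SE, limma adjusted p = 0.000891). In LAS1-AID cells it had 39023 and 39342 after auxin, against 15179 and 16122 after mock treatment (2.50-fold, log2 fold change 1.32 ± 0.12 SE, limma adjusted p = 0.000108). RAT1-AID cells were less uniform, with 70239 and 40111 after auxin, against 42611 and 33327 after mock treatment (log2 fold change 0.49 ± 0.28 SE, limma adjusted p = 0.28), where auxin replicate B lay below mock replicate A. The adjusted p was 0.0466 when that auxin library was left out. With DZA the values were 74728 and 81233 at 15 min, against 18978 and 25668 with DMSO (3.53-fold, log2 fold change 1.82 ± 0.19 SE, limma adjusted p = 0.0215), and 81672 and 89126 at 45 min, against 32613 and 35563 with DMSO (2.51-fold, log2 fold change 1.32 ± 0.076 SE, limma adjusted p = 0.000713).

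AHA1 encodes the strongest known activator of the Hsp90 ATPase. It had 9415 and 10039 normalized counts after auxin in RRP44-AID cells, against 6572 and 6118 after mock treatment (log2 fold change 0.62 ± 0.081 SE, limma adjusted p = 0.00296). In LAS1-AID cells the values were 7163 and 6843 after auxin and 4696 and 4696 after mock treatment (log2 fold change 0.58 ± 0.081 SE, limma adjusted p = 0.00125). In RAT1-AID cells the groups overlapped, with 12924 and 8739 after auxin and 11498 and 10338 after mock treatment (log2 fold change -0.037 ± 0.20 SE, limma adjusted p = 0.925). DZA gave 13902 and 13897 at 15 min, against 5435 and 6419 with DMSO (log2 fold change 1.23 ± 0.14 SE, limma adjusted p = 0.0268), and 22399.6 and 22106 at 45 min, against 8838 and 9497 with DMSO (log2 fold change 1.28 ± 0.057 SE, limma adjusted p = 0.000387).

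HCH1, the smaller relative of AHA1, was called in the same 4 comparisons as AHA1, but 3 of its 4 calls were lost in other settings. It had 5825 and 6463 normalized counts after auxin in RRP44-AID cells, against 4746 and 3987 after mock treatment (log2 fold change 0.50 ± 0.11 SE, limma adjusted p = 0.0174), and 4326 and 3928 in LAS1-AID cells, against 3168 and 3479 after mock treatment (log2 fold change 0.31 ± 0.09 SE, limma adjusted p = 0.028). At 15 min of DZA the values were 9090.4 and 7566, against 4148 and 4775 with DMSO (log2 fold change 0.90 ± 0.16 SE, limma adjusted p = 0.0499). Blocking on the replicate letter lost this last call (adjusted p = 0.0535), as it was with edgeR (0.0512) and most other settings, and without the intensity trend the calls in RRP44-AID and LAS1-AID cells were lost as well (adjusted p = 0.0647 and 0.0894). Leaving out auxin B in RRP44-AID cells, or either mock library in LAS1-AID cells, also removed the call (adjusted p = 0.119, 0.262 and 0.0529). At 45 min it had 12306 and 9850.3 with DZA, against 7163 and 5909 with DMSO (log2 fold change 0.76 ± 0.15 SE, limma adjusted p = 0.0156), a call that held in every setting.

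CPR6 and CPR7, the TPR cyclophilins of Hsp90, had fold changes of opposite sign in each depletion and at both DZA times. Both were called only in RRP44-AID cells, in LAS1-AID cells and at 45 min of DZA. CPR6 rose to 29328 and 27929.8 normalized counts after auxin in RAT1-AID cells, against 17395 and 15598 after mock treatment (log2 fold change 0.80 ± 0.14 SE, limma adjusted p = 0.0119), a call that was lost without mock replicate B (adjusted p = 0.090). It had 14915 and 15327 in RRP44-AID cells, against 8042 and 6447 after mock treatment (log2 fold change 1.07 ± 0.11 SE, limma adjusted p = 0.00141), and 14895 and 13815 in LAS1-AID cells, against 5622 and 5549.9 after mock treatment (log2 fold change 1.36 ± 0.09 SE, limma adjusted p = 3.01e-05). Replicates of each auxin group lay close together. With DZA it had 35154 and 37686 at 15 min, against 12479.7 and 9750.3 with DMSO (log2 fold change 1.72 ± 0.17 SE, limma adjusted p = 0.0186), and 48065 and 51084 at 45 min, against 14334 and 14630.4 with DMSO (log2 fold change 1.77 ± 0.055 SE, limma adjusted p = 0.000229).

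CPR7 was below its control in each depletion and at both DZA times. It was called lower in RRP44-AID cells, LAS1-AID cells and at 45 min of DZA, where 10.2%, 17.2% and 23.7% of all features were. It had 1953 and 1950.4 normalized counts after auxin in RRP44-AID cells, against 2555 and 2423 after mock treatment (log2 fold change -0.35 ± 0.079 SE, limma adjusted p = 0.0204), and 1338 and 1250.4 in LAS1-AID cells, against 1924 and 1864 after mock treatment (log2 fold change -0.55 ± 0.085 SE, limma adjusted p = 0.0019). The groups did not overlap in either strain. In RAT1-AID cells the values were 3493 and 3783 after auxin and 4565 and 4694 after mock treatment, and the difference did not pass (log2 fold change -0.35 ± 0.13 SE, limma adjusted p = 0.121). At 45 min of DZA it had 4244 and 4118, against 4801 and 4713 with DMSO (log2 fold change -0.19 ± 0.053 SE, limma adjusted p = 0.0444), and at 15 min 2705 and 2609.6, against 3301 and 2707 with DMSO (log2 fold change -0.17 ± 0.16 SE, limma adjusted p = 0.557). The fall in LAS1-AID cells held in every setting tried. That in RRP44-AID cells was lost without the intensity trend (adjusted p = 0.0534) and without auxin replicate A or B (0.158 and 0.164), and that at 45 min of DZA was lost with edgeR (0.0591), DESeq2 (0.0751), TMM scaling (0.0561), median-centring (0.0845) and no intensity trend (0.0729), and without any 1 of the libraries (0.139 to 0.244).

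CPR6 shares 406 bases on the opposite strand with the annotated open reading frame YLR217W, which had 20.4 normalized counts or fewer in every library, far below CPR6. The other members that overlap an opposite-strand neighbour (HSC82, AHA1, HCH1, CPR7 and CNS1) share between 6 bases (CPR7) and 154 bases (AHA1) with it. The study names a stranded kit for the auxin experiments and another protocol for diamide. Whether HTSeq counted by strand is not given in the sources used here.

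**Figure D4:**
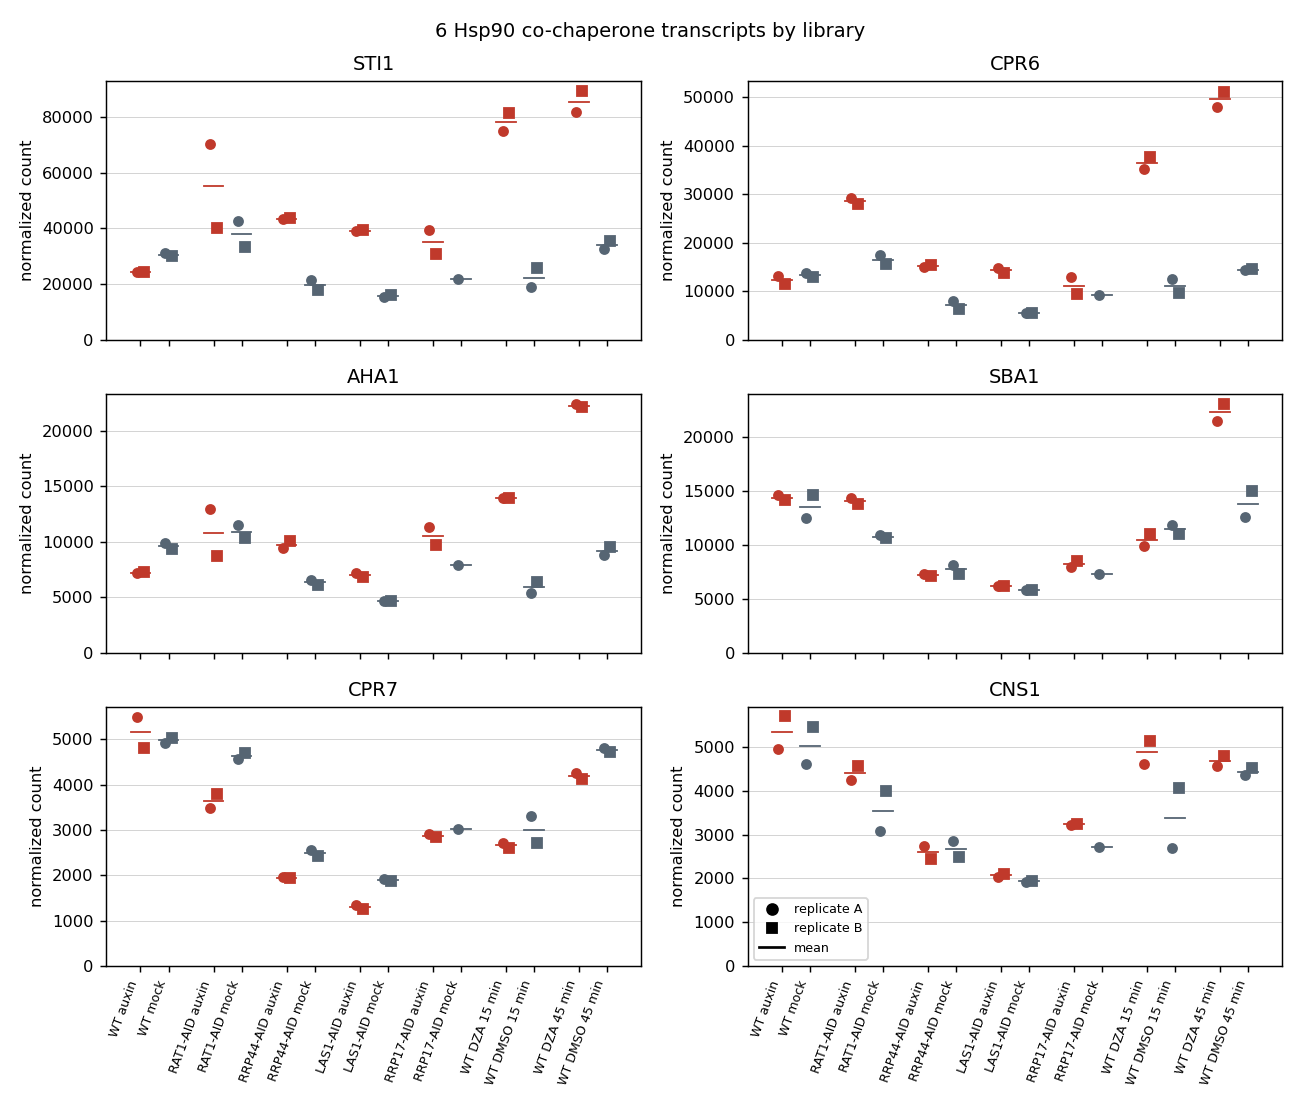
Normalized counts of 6 co-chaperone transcripts in each library, treated groups in red left of their controls in grey, with circles for replicate A, squares for replicate B and lines for the mean. STI1 and CPR6 of RRP44-AID, LAS1-AID and DZA-treated cells lie above their controls, CPR7 of depleted cells lies below its controls, and SBA1 stands above its control by more than its spread at 45 min of DZA but not at 15 min.

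SBA1, the p23 homolog, was called in a single comparison, 45 min of DZA. It had 21426 and 23061 normalized counts at 45 min, against 12569 and 14989.6 with DMSO (1.62-fold, log2 fold change 0.70 ± 0.10 SE, limma adjusted p = 0.0069), whereas at 15 min the values were 9865 and 10960.2 with DZA and 11858 and 11020.3 with DMSO (log2 fold change -0.14 ± 0.13 SE, limma adjusted p = 0.56). In RAT1-AID cells it had 14347 and 13785 after auxin, against 10862 and 10596 after mock treatment (log2 fold change 0.39 ± 0.13 SE, limma adjusted p = 0.0829), a difference that did not pass. In RRP44-AID and LAS1-AID cells the log2 fold changes were -0.10 and 0.093, neither past the threshold (adjusted p = 0.411 and 0.396).

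CDC37, the kinase co-chaperone, was not called in any table, but passed in 2 of them once the replicate letter was blocked on. At 45 min of DZA it had 23020.3 and 16677 normalized counts, against 14212 and 10813 with DMSO (log2 fold change 0.66 ± 0.21 SE, limma adjusted p = 0.0569). Replicate A was the higher in both groups. Blocking on the replicate letter gave an adjusted p of 1.68e-08, in a fit that called 4831 of 6476 features. With so few libraries, the p of the block fit leans mostly on the spread pooled over features, not on that of CDC37. The alternatives edgeR (0.0487), DESeq2 (0.00107) and median-centring (0.043) also called it. In LAS1-AID cells it had 5879.5 and 6337 after auxin, against 4778 and 5502 after mock treatment (log2 fold change 0.25 ± 0.10 SE, limma adjusted p = 0.0762). With the block its adjusted p there was 0.00496, where 3101 of 6103 features were called. In RAT1-AID and RRP44-AID cells the groups overlapped, with log2 fold changes of -0.086 and -0.09. At 15 min of DZA it was 0.43 (95% confidence interval -0.022 to 0.88). Leaving out 1 library, which leaves a group of 1, let it pass in several tables and with opposite signs: auxin A in LAS1-AID cells (adjusted p = 0.00221), mock B in RRP44-AID cells (0.0181, log2 fold change -0.27), DMSO A at 15 min (0.0159) and DMSO A, DMSO B or DZA B at 45 min (0.000433, 0.0262 and 0.0142).

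CNS1, an essential TPR co-chaperone, was called in no comparison. It had 2042 and 2102 normalized counts after auxin in LAS1-AID cells, against 1929 and 1936 after mock treatment, a log2 fold change of 0.10 (95% confidence interval -0.079 to 0.28). In RRP44-AID cells the interval was -0.28 to 0.20 and at 45 min of DZA -0.077 to 0.23, so that only small changes in either direction remain inside the intervals. The intervals in RAT1-AID cells (-0.071 to 0.72) and at 15 min of DZA (-0.036 to 1.15) were wider, and without DMSO B at 15 min, against a single DMSO library, it passed with a log2 fold change of 0.85 (adjusted p = 0.000546).

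Set beside the promoter windows, each member called higher was 1 of the 7 with a 2-unit heat shock element: 2 after Rat1, 5 after Rrp44 and 5 after Las1 depletion, and with DZA 5 after 15 min and 7 after 45 min. The 3 members without one were called higher in no table and accounted for each call of a fall, all in CPR7. Over all features with a window, those with and those without the element were called higher in similar shares, 11% with it and 10.2% without it after Rat1 depletion, 15.1% and 14.7% after Rrp44, 16.3% and 15.3% after Las1 depletion, 4.55% and 3.2% at 15 min of DZA, and 21.7% and 22.3% at 45 min. Calls of a fall likewise had similar shares with and without it. These were 6.64% and 6.11% after Rat1, 11.8% and 10% after Rrp44, and 19% and 17.2% after Las1 depletion. With DZA they were 0.964% and 1.22% at 15 min, and 25.1% and 24.3% at 45 min. CDC37, which has no such element, joined those called higher at 45 min with the block, edgeR, DESeq2 and median-centring, and in LAS1-AID cells with the block. SBA1 and HSC82 hold an element and were called only at 45 min. These are counts over 10 chosen genes.

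Auxin in WT cells, which carry osTIR1 but no degron, measures what auxin does by itself. HSP82 had 13511 and 8941 normalized counts after auxin, against 22399 and 18410.2 after mock treatment, a log2 fold change of -0.89 (95% confidence interval -1.45 to -0.32) that did not pass (limma adjusted p = 1) but passed with the replicate block (adjusted p = 0.0029). AHA1 had 7185 and 7260.2 after auxin, against 9855 and 9338 after mock treatment (log2 fold change -0.41 ± 0.12 SE, limma adjusted p = 1), and STI1 24185 and 24354, against 31067 and 30055 (log2 fold change -0.33 ± 0.14 SE, limma adjusted p = 1). The values of these 3 after auxin lay below both mock libraries. HSC82 had 286429 and 224506 after auxin, overlapping the 258119 and 258835 after mock treatment, and the other 6 members had log2 fold changes between -0.22 and 0.09.

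The response of each depletion strain was set against that of WT cells in a joint fit of the 6 replicated tables (24 libraries), as a difference of log2 fold changes. In this fit 14.3%, 7.82% and 12.2% of 6058 features differed from WT for RAT1-AID, RRP44-AID and LAS1-AID cells, and 2, 4 and 5 of the 10 members did. HSP82 differed by 2.63 (95% confidence interval 1.98 to 3.28, limma adjusted p = 1.83e-05) in RAT1-AID, 2.90 (95% confidence interval 2.25 to 3.55, limma adjusted p = 2.14e-05) in RRP44-AID and 3.05 (95% confidence interval 2.40 to 3.70, limma adjusted p = 7.92e-06) in LAS1-AID cells. CPR6 also differed in all 3, by 0.92, 1.20 and 1.49. STI1 and AHA1 differed in RRP44-AID and LAS1-AID cells, and CPR7 in LAS1-AID cells, by -0.60 (95% confidence interval -0.88 to -0.32, limma adjusted p = 0.00783). STI1 in RAT1-AID cells differed from WT by 0.83 (95% confidence interval 0.23 to 1.42, limma adjusted p = 0.0614), and with the replicate block its adjusted p was 0.0131. For HSC82 the differences were 0.36, 0.35 and 0.38, none past the threshold. Since the WT libraries are shared by these 3 contrasts, and since HSP82, AHA1 and STI1 were lower after auxin in WT cells, part of each difference is the WT value.

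**Figure D5:**
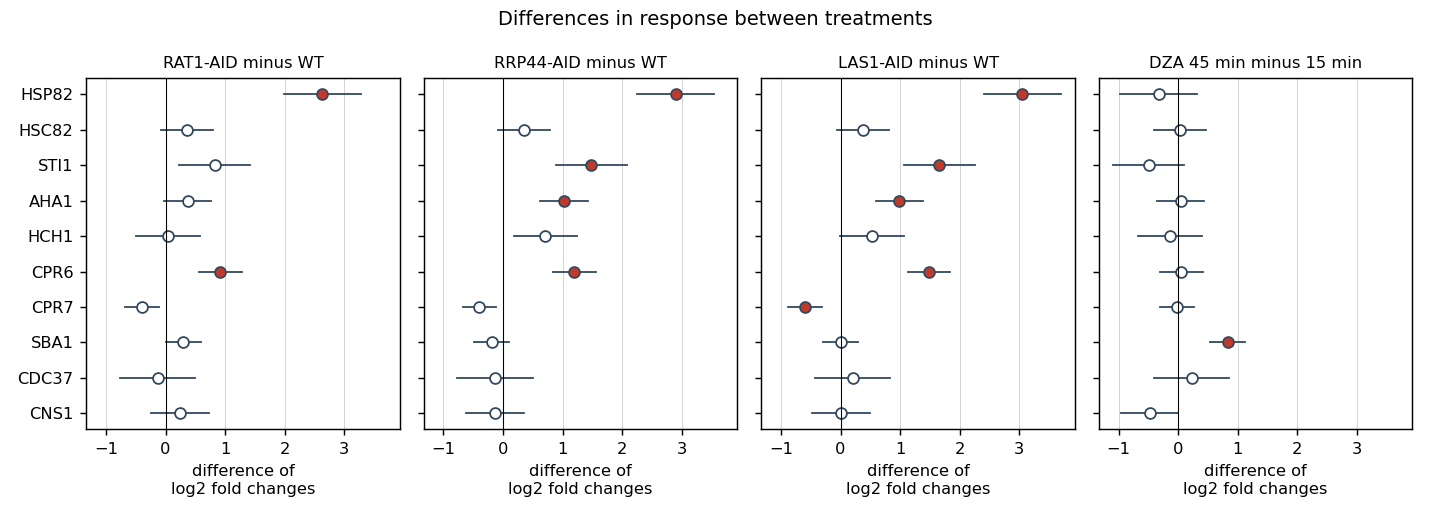
Difference between log2 fold changes of 2 treatments for each of the 10 transcripts (rows), with 95% confidence intervals, and filled points where the limma adjusted p was under 0.05. The first 3 panels set a depletion strain against WT cells given auxin, and the last sets 45 min of DZA against 15 min. HSP82 and CPR6 are filled in all 3 depletion panels, and SBA1 alone is filled in the DZA panel.

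Between the depletions no member differed in the main fit, where 4.99%, 0.545% and 4.39% of features did for Las1 minus Rat1, Las1 minus Rrp44 and Rrp44 minus Rat1. With the replicate block, STI1 and AHA1 rose more after Las1 than after Rat1 depletion, by 0.83 (adjusted p = 0.0276) and 0.61 (adjusted p = 0.0479), and AHA1 more after Rrp44 than after Rat1 depletion, by 0.65 (adjusted p = 0.0411). HSP82 differed by 0.42 between Las1 and Rat1 depletion (95% confidence interval -0.23 to 1.07), an interval that includes 0 and reaches past 1. Between 45 and 15 min of DZA 10.3% of features differed, and of the members SBA1 alone, by 0.83 (95% confidence interval 0.54 to 1.13, limma adjusted p = 0.00191). For HSP82 the difference between the times was -0.33 (95% confidence interval -0.97 to 0.32).

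In RRP17-AID cells, described with 1 mock library and no test, HSP82 had 42993 and 31751 normalized counts after auxin, against 13874 after mock treatment, a log2 fold change of 1.41. It was the 1 member at least 2-fold higher, where 0.852% of 6103 features were. STI1 had 39413 and 30855 after auxin, against 21833 after mock treatment (log2 fold change 0.68), and AHA1 11320.2 and 9726, against 7955 (0.40). CPR6 had 12918 and 9346 after auxin, against 9316 after mock treatment, so that auxin library B lay at the level of the mock library. HSC82 had 198100 and 178276 after auxin, against 154609 after mock treatment (0.28). The other members lay between -0.068 (CPR7) and 0.26 (HCH1), and the HSP82 share of Hsp90 was 17.8% and 15.0% after auxin, against 8.19% after mock treatment. The study describes the tagged Rrp17 as partly defective before auxin, with a build-up of pre-rRNA and slower growth. The mock library is therefore not an unperturbed baseline, and how this bears on the changes was not tested.

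Diamide oxidises thiols and is a general proteotoxic and oxidative stress, here with 1 library per time and values in RPKM (reads per kilobase of feature, scaled to library size). HSP82 had 1007 RPKM at 15 min, against 199.8 at 0 min, 5.04-fold (log2 2.33, on RPKM + 0.1). HSC82 had 1573 RPKM at 15 min, against 1148 at 0 min (log2 0.45). HSP82 was thus 39.0% of the Hsp90 transcripts at 15 min, against 14.8% at 0 min, both above the corresponding shares in the auxin and DZA experiments, which used another library protocol and strain.

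STI1 had 485 RPKM at 15 min of diamide, against 187 at 0 min (log2 1.38). AHA1 had 181, against 69.5 (1.38), and CPR6 394, against 164 (1.27). These 3 and HSP82 were the 4 members at least 2-fold higher, where 8.37% of 5760 features were. The lower end of the set was CNS1, with 8.28 RPKM at 15 min, against 22.9 at 0 min (log2 -1.46, 95% exact counting interval -1.84 to -1.11), and CPR7, with 10.7, against 21.7 (-1.01, -1.35 to -0.69). They were the 2 members at least 2-fold lower, where 9.03% of features were. CNS1 rested on 90 reads at 15 min and 209 at 0 min, and CPR7 on 124 and 210. Intervals cover counting error only, since there are no replicates. HCH1, CDC37 and SBA1 had log2 fold changes of 0.74, 0.30 and 0.16.

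Genes around the Hsp90 cycle were read from 3 lists. Of 8 cytosolic Hsp70 partners, the chaperones that hand clients to Hsp90 and their helpers, 4 were called higher after Rat1 depletion, 5 after Rrp44 and 5 after Las1 depletion, 5 at 15 min and 8 at 45 min of DZA, with none lower, where 10.7%, 15.1%, 16.5%, 3.8% and 23.7% of all features were called higher. SSA1, SSA4, YDJ1 and FES1 were higher in all 5 of these comparisons, and SIS1 in all except Rat1 depletion. There SIS1 passed with the replicate block (adjusted p = 0.00465, where 1696 of 6524 features were called) and with DESeq2 (0.0141). The list medians were 0.75, 0.87 and 1.05 after depletion and 1.48 and 0.92 with DZA. SSA4, a strongly inducible Hsp70, had the largest rise in each of them, and in LAS1-AID cells it had 6089.9 and 6223 normalized counts after auxin, against 771 and 759.5 after mock treatment (log2 fold change 3.01). The groups of SSA4 lay far apart, and its log2 fold change was 1.27 after Rat1 and 1.99 after Rrp44 depletion, 3.74 at 15 min and 3.02 at 45 min of DZA. Without test, the list medians were 0.42 in RRP17-AID cells and 0.43 with diamide.

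The 6 other Hsp90 cofactors (PPT1, SGT1, TAH1, PIH1, RVB1 and RVB2) were called in no depletion strain and not at 15 min of DZA, with medians between -0.22 (LAS1-AID) and 0.065 (15 min of DZA). At 45 min SGT1, a cofactor in kinetochore assembly, was higher (6015 and 5301 normalized counts, against 4637 and 3997 with DMSO, log2 fold change 0.39). PPT1, a phosphatase that acts on Hsp90, was lower (7222 and 7897, against 8825 and 9599 with DMSO, -0.29). With the replicate block, PPT1, TAH1, PIH1 and RVB2 also passed in LAS1-AID cells, with log2 fold changes between -0.26 and -0.21. TAH1, PIH1 and RVB1 passed with it at 45 min of DZA (-0.15, 0.20 and -0.08). The block fit called 3101 of all 6103 features in LAS1-AID cells and 4831 of 6476 at 45 min, so such calls were common.

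Of 7 genes for well-known Hsp90 clients, 1, 2 and 2 were called lower after Rat1, Rrp44 and Las1 depletion and 1 and 2 at 15 and 45 min of DZA, where 6.02%, 10.2%, 17.2%, 1.13% and 23.7% of all features were lower. Called higher were 1 after Las1 depletion and 2 at 45 min, where 16.5% and 23.7% of features were. CDC28, the cell-cycle kinase, was lower in RAT1-AID cells (2086 and 1967 normalized counts after auxin, against 3539 and 3041 after mock treatment, log2 fold change -0.70). HAP1, the haem-responsive activator, had the largest fall in RRP44-AID cells (-0.60), in LAS1-AID cells (-0.59), at 15 min of DZA (-0.90) and at 45 min (-0.40), with 6347 and 7075 at 15 min, against 12325 and 12689.6 with DMSO. CDC28 was also lower in RRP44-AID and LAS1-AID cells (-0.34 and -0.35), though not with DESeq2 in LAS1-AID cells (adjusted p = 0.0578), and SWE1, a mitotic inhibitor kinase, at 45 min of DZA (-0.37). Called higher were SLT2, the cell wall integrity kinase, in LAS1-AID cells (0.28, limma adjusted p = 0.0496, and 0.0703 with DESeq2), and at 45 min SLT2 (0.59) and STE11, a mating pathway kinase, with 4599 and 4161, against 2578 and 2524 with DMSO (0.78). With the replicate block, HAP1 also passed in RAT1-AID cells (-0.45), STE11 in LAS1-AID cells (0.23) and CNA2, a calcineurin subunit, at 45 min (-0.40). The list medians lay between -0.17 (RAT1-AID) and 0.07 (LAS1-AID) in these tables.

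HSF1, the gene of the heat shock factor, was itself called higher in LAS1-AID cells, with 3079 and 3470.4 normalized counts after auxin, against 2038 and 2239 after mock treatment (log2 fold change 0.61 ± 0.093 SE, limma adjusted p = 0.00179). In RRP44-AID cells it had 3150.0 and 2802 after auxin, against 2383 and 2336 after mock treatment (log2 fold change 0.33 ± 0.088 SE, limma adjusted p = 0.0351), and at 45 min of DZA 9164 and 9249, against 5139 and 5236 with DMSO (log2 fold change 0.83 ± 0.048 SE, limma adjusted p = 0.00074). Its largest fold change was at 15 min of DZA, with 5705 and 5580.2, against 2557 and 3842 with DMSO (log2 fold change 0.85 ± 0.22 SE, limma adjusted p = 0.0976), which DESeq2 called (0.0125) and limma did not. In RAT1-AID cells the auxin values of 6135 and 3420.3 lay on either side of the 4354 and 4070.2 after mock treatment (log2 fold change 0.12 ± 0.26 SE, limma adjusted p = 0.799).

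The features whose pattern was most like that of HSP82 were ranked by Pearson correlation over the 24 libraries of the 6 replicated tables, after removing each table's mean, among 5372 features with a mean of at least 100 in every table. CPR6 came first (0.986), followed by KAR2, the Hsp70 of the endoplasmic reticulum (0.981), the small heat shock protein gene HSP42 (0.98), the disaggregase gene HSP104 (0.979) and CUR1, a sorting factor for misfolded proteins (0.978). For HSC82 the order was FSH1, a serine hydrolase gene (0.949), CPR6 (0.942), HSP82 (0.938), LCB5, a sphingoid base kinase gene (0.938) and the DNA exonuclease gene EXO1 (0.934). Among the members, STI1 followed HSP82 with 0.943, AHA1 with 0.895 and HCH1 with 0.81, CDC37 with 0.587, CNS1 with 0.464, SBA1 with 0.446 and CPR7 with -0.743. These correlations share libraries and their scaling, carry the treatment contrast itself, and are given as a description.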

How the data were processed

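RNA was measured in 30 rRNA-depleted libraries. Reads were trimmed with Cutadapt, aligned with TopHat2 2.1.0 and counted with HTSeq, per the labels and the study's methods. Deposited values of the auxin and DZA tables are counts that the authors divided by DESeq2 size factors (signal, as normalized counts, 1 table per strain or time). Deposited diamide values are RPKM. Columns of the authors' fold changes and p-values were not used. Dividing by the smallest step gave whole reads for 100% of values in each of 26 libraries (tolerance 0.1 reads), and the step of RRP44-AID mock B could not be decided, so its table has no edgeR or DESeq2 alternative.

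Each table was fitted alone with limma 3.58.1 (R 4.3.3) on log2(normalized count + 1) with an intensity trend, for features with a mean of at least 10, and p-values were adjusted by Benjamini-Hochberg over all features. Groups were fitted from treatment alone, as in the study. Differences between treatments came from 1 limma fit of 24 libraries. The RRP17-AID mock libraries were identical and diamide had no replicates, so these were not tested. Diamide intervals are exact, from recovered reads, at 95%.

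The labels put replicates on separate days, so equal letters were taken as pairs in the replicate block, the same-letter values and the permutation within pairs. The main fits and their calls ignored this pairing. Same-letter deviations correlated at 0.482 (WT), 0.181 (RAT1-AID), 0.292 (RRP44-AID), 0.265 (LAS1-AID), -0.0984 (DZA 15 min) and 0.791 (DZA 45 min).

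All 10 members, with their levels and tests, were described, and for other lists the counts and the largest change that passed. Other genes are named as the features most like HSP82 or HSC82, or where a count of 5 or fewer was broken down, which was done after their values were seen. The members and lists were chosen with earlier results of these data known. Gene names came from RefSeq tables for 6048 of the 7126 IDs (6006 of 6777 with diamide). Alternatives were the pseudocount, the filter, the scaling, the trend, the replicate block, edgeR 4.0.16, DESeq2 1.42.0 and each library left out. Fits were tested on simulated data.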

Additional observations from a re-analysis of the deposited data

Results flagged for a closer look

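The 12 results below were singled out because the effect of a treatment on a member differed between 2 experiments in the joint limma fit of 24 libraries (adjusted p over 6058 features). They come from 7 contrasts of 10 members, and no explanation was weighed. Relative to WT, 2, 4 and 5 of the 10 members differed for RAT1-AID, RRP44-AID and LAS1-AID, beside 14.3%, 7.82% and 12.2% of all features. Between the DZA times 1 member differed, beside 10.3% of all features. The counts for RAT1-AID and for the DZA times are thus near the share of all features. Relative to auxin in WT cells, HSP82 differed by 3.05 (adjusted p = 7.92e-06) with Las1 depleted, 2.90 (2.14e-05) with Rrp44 depleted and 2.63 (1.83e-05) with Rat1 depleted. CPR6 differed by 1.49 (2.8e-05), 1.20 (0.000248) and 0.92 (0.00144) in the same order. STI1 differed by 1.48 (0.00313) with Rrp44 and 1.66 (0.00105) with Las1 depleted, and AHA1 by 1.03 (0.00231) with Rrp44 and 0.99 (0.00257) with Las1 depleted. CPR7 differed by -0.60 (0.00783) in LAS1-AID cells, and between 45 and 15 min of DZA SBA1 differed by 0.83 (0.00191). All 12 passed with the replicate block as well, and the 8 that could be fitted with edgeR passed there.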

How the results depend on the processing

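Of 1080 values of single members under an alternative, 1000 kept direction and call, 36 lost and 24 gained the call, 3 moved and 17 reversed, all of the last uncalled. The cause was not tested except where noted. For HSP82 beyond HSC82 over the 3 depletions, leaving out a table (which leaves 36 labellings) gave 1.75 without RAT1-AID, 1.61 without RRP44-AID and 1.55 without LAS1-AID.

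The replicate block moved members called to 1 in WT cells and members differing to 2 for LAS1-AID minus RAT1-AID and 1 for RRP44-AID minus RAT1-AID. Beyond the calls of the block given in the report it changed no other call of a member. Leaving out each library gave 0 to 0 members called in WT, 1 to 3 in RAT1-AID (1 without mock B), 4 to 7 in RRP44-AID, 5 to 7 in LAS1-AID, 0 to 7 at 15 min (0 without DZA A or DZA B) and 7 to 8 at 45 min of DZA.

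Uncalled log2 fold changes that reversed when a library was left out ranged, in WT, from -0.20 (without auxin A) to 0.15 (without auxin B) for HSC82, -0.50 (without auxin A) to 0.067 (without auxin B) for HCH1, -0.047 (without auxin A) to 0.14 for CPR7, -0.023 (without mock A) to 0.20 for SBA1, -0.22 (without auxin A, -0.10 without mock B) to 0.32 for CDC37 and -0.036 (without mock A, -0.015 without auxin B) to 0.21 for CNS1. In RAT1-AID they ranged from -0.32 to 0.25 (without auxin B, 0.040 without mock A) for AHA1 and -0.29 to 0.12 (without mock B) for CDC37, and with median-centring these were 0.053 and 0.0034. In RRP44-AID they ranged from -0.27 to 0.091 (without mock A) for CDC37 and -0.14 to 0.058 (without mock A, 0.039 without auxin B) for CNS1. HSC82 for LAS1-AID minus RAT1-AID was -0.0042 with edgeR.

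Features called in WT were 0, and 8 with the replicate block, 2 with DESeq2, 16 without auxin B and 1 without mock B. In RAT1-AID 1091 became 1696 with the block and 704 at a mean of at least 100, and 710 and 701 without mock A and mock B, and 64% of calls were higher, 76.3% with median-centring. In RRP44-AID 1604 became 2884 without mock B and 656 and 666 without auxin A and auxin B. In LAS1-AID 2058 became 3101 with the block and 1189 without mock A, and at 45 min of DZA 3069 became 4831. At 15 min 311 became 158 at a mean of at least 100 and 952 with DESeq2, 2569 and 2791 without a DMSO library and 0 without a DZA library. Median-centring moved diamide to 2.42 (HSP82), 0.54 (HSC82) and 1.46 (STI1).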

Other observations

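CNS1 and SBA1, the members that followed HSP82 least closely among those that correlated positively, had nearest neighbours of other kinds. These genes were chosen after their values were seen and are given as a description, with Pearson correlations over the same 24 libraries and 5372 features. CNS1 was most like SAP185 (0.974), a phosphatase subunit, NOP14 (0.94), MRD1 (0.934), ENP2 (0.929) and HCA4 (0.928), of which the last 4 encode factors of small ribosomal subunit assembly in the nucleolus. SBA1 was most like CCT8 (0.887) and CCT4 (0.868), subunits of the cytosolic chaperonin, followed by DOA1 (0.841), UBP2 (0.837) and FMS1 (0.824), which are not. STI1 was most like SSA4 (0.97), and AHA1 was most like UBX4 (0.955).

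The summed level of the 8 co-chaperones per kilobase changed by about as much as that of the summed Hsp90 genes with Las1 or Rrp44 depleted and with DZA. With Rat1 depleted it changed by less. With Las1 depleted its log2 change was 0.71 (Hsp90 0.69), with Rrp44 depleted 0.58 (Hsp90 0.59) and with Rat1 depleted 0.31 (Hsp90 0.56). DZA gave 1.06 at 15 min (Hsp90 1.15) and 1.06 at 45 min (Hsp90 1.10). These sums were not tested, and the 2 sums in RAT1-AID cells are the farthest apart. The sums do not describe each co-chaperone. The median log2 fold change of the 8 was lower, 0.14, 0.23 and 0.28 with Rat1, Rrp44 and Las1 depleted and 0.73 at both DZA times.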
